A study of Macaca mulatta with 39 samples.

Results

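Smooth muscle cells and myofibroblasts, the contractile fibroblasts of healing wounds, build force with bundles of actin filaments, myosin motors and the proteins that hold them. The genes described here are 7 parts of that machine: the smooth muscle actin ACTG2, the filament nucleator LMOD1, the tropomyosins TPM1 and TPM2, the myosin regulatory light chain MYL9, the focal adhesion adaptor TGFB1I1 and the actin-binding protein SYNPO2. They were taken by gene symbol, with every probe set that the platform annotation assigns to them and to no other gene. All 7 genes were found among the 14132 genes with a probe set of their own, and they held 21 of the 52020 rhesus probe sets: 3 for ACTG2, 2 for LMOD1, 5 for TPM1, 7 for TPM2, 1 for MYL9, 1 for TGFB1I1 and 2 for SYNPO2. No filter on low values was applied, so all 21 were tested.

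The study set pluripotent rhesus macaque cells against differentiated cells of the same pedigree. Embryonic stem cells (ESCs) came from a male line, C3106, and a female one, C3806. Fibroblasts were grown out of teratomas, the tumours that these lines formed after injection into immune compromised mice, with 5 cultures from C3106 (TA31, TB31, TC31, TD31 and TE31) and 3 from C3806 (TA38, TB38 and TC38). Skin fibroblasts of the parent animals gave 3 cultures (M032, M088 and M106p1). No cell carried a transgene or was treated according to the labels, no age of any animal is given, and each ESC line is a single line.

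Each of the 13 sources had 3 arrays, and 36 of the 39 arrays were used. The arrays labelled C3806c, M106p1f and TB31c were left out, because over all probe sets their mean correlation with the arrays of their own label (0.9094, 0.9513 and 0.9660) was below that with another source: TC38 (0.9961), TD31 (0.9967) and M106p1 (0.9943). The kept array C3806b also correlated slightly more with C3106 (0.9819) than with C3806a (0.9755). The labels call the arrays triplicates, but nothing says that they came from separate cultures, so the source was the unit of the tests between cell kinds. The labelled kinds were checked on their markers. The mean log2 signal of 6 ESC markers was 11.59 and 11.69 in the ESC lines against 4.91 to 5.20 in the 11 fibroblast cultures. For 7 fibroblast markers it was 6.93 and 7.01 in the ESC lines against 11.37 to 11.90. The actin control probes gave a larger gap between the 3′ and the 5′ end, a sign of shorter or degraded RNA, in ESC arrays (log2 median 0.74, 0.26 to 3.89) than in teratoma fibroblast arrays (0.17, 0.02 to 0.78) or skin arrays (0.27, 0.05 to 0.59). The GAPDH control probes did not show this, with a median gap of 0.58 in ESC arrays (0.49 to 1.42). It was 0.67 in teratoma fibroblast arrays (0.50 to 0.87) and 0.70 in skin arrays (0.60 to 0.92). The highest gap on either control, 3.89 for actin and 1.42 for GAPDH, was that of C3806a. Its part in the differences between ESCs and fibroblasts was not tested, but those differences could be recomputed without that array.

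Contraction in these cells starts when myosin light chain is phosphorylated and myosin pulls on actin filaments. Tropomyosin lies along the filament and sets which myosins and regulators reach it. Transcription of many of these genes depends on serum response factor with its partners of the myocardin family, and TGF-beta is the best known inducer of the contractile programme in fibroblasts.

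In both ESC lines 6 of the 7 genes were lower than in fibroblasts of either origin, and ACTG2 was the exception. The values are log2 signals, so a step of 1 is a factor of 2. A probe set was called different when limma's moderated test gave a Benjamini-Hochberg adjusted p under 0.05 over all 52020 probe sets and the log2 difference was at least 1. Each gene is described on its brightest probe set, and levels are not compared between genes, since a probe set's brightness depends on its probes. In these bulk samples fewer cells of a type and less RNA per cell cannot be told apart.

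ACTG2 encodes the gamma actin of visceral smooth muscle, and its brightest probe set was bright in every source. The 3 arrays of C3106 lay at 12.55, 12.58 and 12.63, and the 2 of C3806 at 12.12 and 11.17. The 8 teratoma cultures ran from 12.23 in TA38 to 13.28 in TB38 with a median of 13.01. The skin cultures stood at 10.87 in M032, 12.14 in M088 and 12.87 in M106p1. C3106 was thus above both M032 and M088, TA38 was below C3106, and the kinds overlapped. The ESCs differed from teratoma fibroblasts by −0.81 (SE 0.42, adjusted p = 0.173, 95% interval −1.74 to 0.11) and from skin by 0.16 (SE 0.48, adjusted p = 0.845, interval −0.90 to 1.22). The interval still includes a fall of more than a factor of 2 against teratoma fibroblasts, so these data do not show that ACTG2 was the same.

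The widest gap in ACTG2 was between the skin cultures, which spanned 2.00 log2 units (F test over arrays, adjusted p = 1.52e-10). The probe set MmugDNA.30998.1.S1_at gave the same order at both ends, with M032 lowest at 10.78 and TB38 highest at 12.94, and it followed the first over the 11 fibroblast cultures (r = 0.99). The third, MmugDNA.411.1.S1_at, stayed between 5.18 and 5.63 in all 13 sources, which is below the array medians of 6.25 to 6.48. The actins are nearly identical in their coding sequence, and whether the ACTG2 probes also bind another actin could not be checked without probe sequences. Of the cytoplasmic actins, ACTB ran from 13.50 to 13.67 and ACTG1 from 13.69 to 13.87 in the fibroblast cultures. The ACTG2 probe set had r = −0.14 with ACTB and −0.26 with ACTG1 (n = 11 cultures). Over so narrow a range r cannot show whether a pattern is shared, and binding of another actin was not tested. No probe set of ACTA2, the vascular smooth muscle actin, was assigned by the annotation used here.

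LMOD1, leiomodin 1, starts new actin filaments in smooth muscle. On MmugDNA.14438.1.S1_at the ESC arrays stood at 6.13, 6.52 and 6.46 for C3106 and at 7.13 and 6.86 for C3806. The teratoma cultures ran from 8.57 in TD31 to 9.85 in TE31 with a median of 9.09, and the skin cultures stood at 9.56 in M032, 10.47 in M088 and 10.47 in M106p1. Every fibroblast array was above every ESC array, with 8.45 as the lowest fibroblast value and 7.13 as the highest ESC value. ESCs were lower than teratoma fibroblasts by 2.43 log2 units, a factor of 5.38 (log2 difference −2.43, SE 0.35, adjusted p = 0.000343). Against skin the factor was 11.2 (log2 difference −3.48, SE 0.40, adjusted p = 7.58e-05). The other LMOD1 probe set, MmuSTS.3088.1.S1_at, was called in both comparisons as well, at −1.58 and −2.22.

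TPM1 encodes the alpha tropomyosin. On MmugDNA.1821.1.S1_at the C3106 arrays stood at 11.56, 11.22 and 11.98 and the C3806 arrays at 11.28 and 10.41. The 8 teratoma cultures lay within 13.12 to 13.37 (median 13.31), and the skin cultures stood at 13.03 in M032, 13.47 in M088 and 13.33 in M106p1. The fibroblast cultures thus formed a narrow band (SD 0.12, n = 11) above all ESC arrays. ESCs were lower by a factor of 4.19 than teratoma fibroblasts (log2 difference −2.07, SE 0.11, adjusted p = 2.79e-07) and by a factor of 4.17 than skin (−2.06, SE 0.12, adjusted p = 9.14e-07).

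TPM2, the beta tropomyosin, gave a like picture on its brightest probe set MmugDNA.6549.1.S1_at. The C3106 arrays stood at 10.45, 10.54 and 10.33, and the C3806 arrays at 10.39 and 9.43. The teratoma cultures ran from 11.91 in TD31 to 12.71 in TE31 (median 12.44), and the skin cultures stood at 12.60 in M032, 12.91 in M088 and 12.76 in M106p1. No fibroblast array came below 11.65. The ESCs were lower by a factor of 4.51 than teratoma fibroblasts (log2 difference −2.17, SE 0.22, adjusted p = 2.72e-05) and by a factor of 5.99 than skin (−2.58, SE 0.25, adjusted p = 2.29e-05).

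MYL9 is the regulatory light chain whose phosphorylation switches on smooth muscle and non-muscle myosin. Its single probe set stood at 10.59, 10.72 and 10.39 in C3106 and at 10.64 and 10.41 in C3806. The teratoma cultures ran from 12.03 in TD31 to 12.78 in TB31 (median 12.51), and the skin cultures stood at 12.24 in M032, 12.91 in M088 and 12.94 in M106p1. The ESC lines lay side by side and no fibroblast array came below 11.81. ESCs were lower by a factor of 3.80 than teratoma fibroblasts (log2 difference −1.92, SE 0.23, adjusted p = 9e-05) and by 4.44 than skin (−2.15, SE 0.26, adjusted p = 0.000108).

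TGFB1I1 encodes Hic-5, an adaptor of focal adhesions that is itself induced by TGF-beta. Its single probe set stood at 7.98, 7.92 and 9.10 in C3106 and at 8.87 and 8.04 in C3806, so 1 array of each line was about 1 unit above the others. The teratoma cultures ran from 9.65 in TD31 to 10.78 in TB31 (median 10.42), and the skin cultures stood at 9.92 in M032, 10.42 in M088 and 10.40 in M106p1. The highest ESC array, at 9.10, nearly reached the lowest fibroblast array, at 9.15. ESCs were lower by a factor of 3.65 than teratoma fibroblasts (log2 difference −1.87, SE 0.29, adjusted p = 0.000647) and by 3.60 than skin (−1.85, SE 0.34, adjusted p = 0.00163).

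SYNPO2, synaptopodin 2 or myopodin, bundles actin and sits at the Z-disc in striated muscle and along stress fibres. On MmugDNA.4077.1.S1_at the C3106 arrays stood at 3.83, 3.71 and 3.65 and the C3806 arrays at 3.62 and 3.46, where the lowest value of the whole table was 2.11. The teratoma cultures were spread over 4.02 log2 units, from 4.78 in TC31 to 8.80 in TE31 (median 6.76), while the skin cultures stood at 8.51 in M032, 8.45 in M088 and 9.14 in M106p1. Every fibroblast array was above every ESC array, with TC31 the closest. ESCs were lower than skin (log2 difference −5.06, SE 1.05, adjusted p = 0.00341) and than teratoma fibroblasts (−2.96, SE 0.91, adjusted p = 0.0297). The ESC signals lay below the array medians of 6.25 to 6.48 and were not shown to be above background, so no exact fold is given.

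The SYNPO2 call against teratoma fibroblasts was not firm. It was lost without C3106 (−3.05, adjusted p = 0.0936), C3806 (−2.86, adjusted p = 0.139), TA38 (−2.72, adjusted p = 0.0553) or TC38 (−2.91, adjusted p = 0.0516), and with all 39 arrays (−2.49, adjusted p = 0.0763). The other SYNPO2 probe set, MmugDNA.9346.1.S1_at, stayed between 5.64 and 6.39 in all sources and was not called (−0.23 against teratoma fibroblasts and −0.47 against skin).

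**Figure D1:**
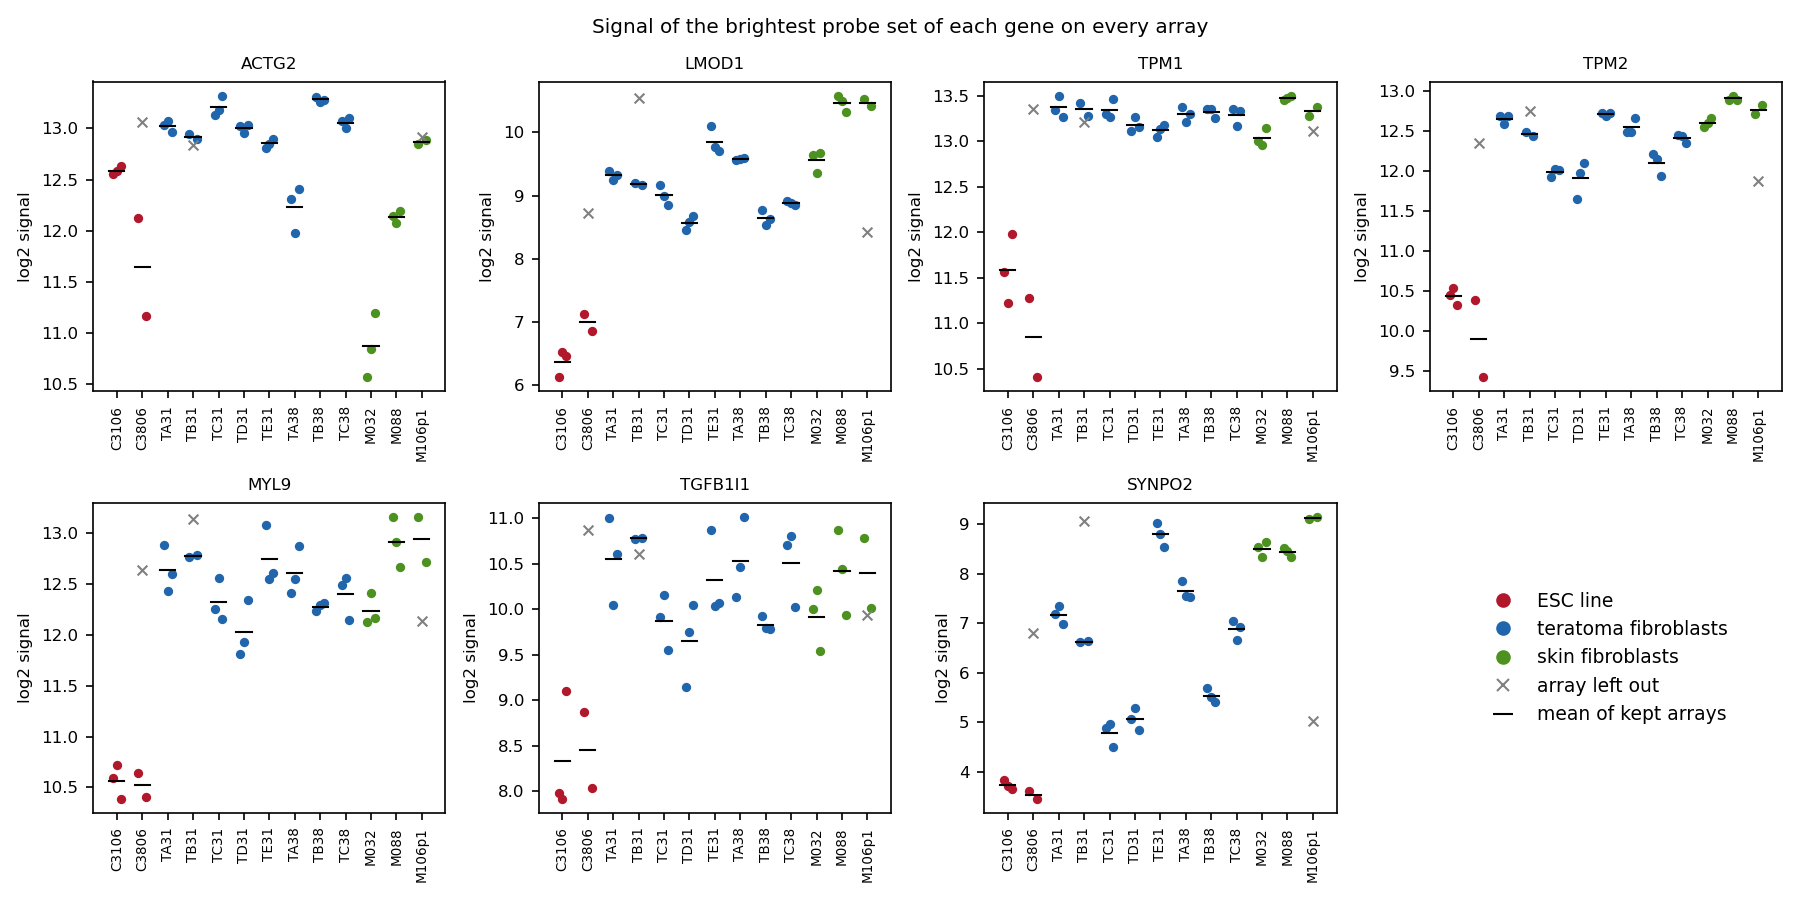
Log2 signal (vertical axis) of the brightest probe set of each gene in the 13 sources (horizontal axis), with 1 point per array, a bar for the mean of the kept arrays of a source and a cross for each of the 3 arrays left out. For 6 genes both ESC lines lie below all 11 fibroblast cultures, while ACTG2 of C3106 (12.59) lies above M032 (10.87) and M088 (12.14).

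Counted over all their probe sets, 11 of the 21 were called lower in ESCs than in teratoma fibroblasts and 0 higher, where 6.23% of all probe sets were called lower and 5.51% higher. Over genes, each on its brightest probe set, 6 of 7 were called lower and 0 higher, where the shares over all genes were 8.16% and 6.3%. The median log2 difference of the 7 genes was −2.07 and that of all genes 0.02. Against skin, 12 of 21 probe sets were called lower (all probe sets 7.17%) and 0 higher (7.96%), and 6 of 7 genes were lower (all genes 9.76%) and 0 higher (10.2%), with a median of −2.15 against 0.03. Both comparisons use the same ESC sources, so they are not separate evidence. The members, like the lists below, were chosen with earlier results of these data known. The shares over all probe sets and genes include dim probe sets, since no filter on low values was applied. The counts are therefore a description and not a test of the members as a set. With all 39 arrays 9 and 10 probe sets, and 5 and 6 genes, were lower. Without C3806a, the ESC array with the large 3′ to 5′ gap, the 6 genes called on their brightest probe set were called in both comparisons too.

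The probe sets of a tropomyosin gene did not all tell the same story. In TPM1 all 5 were lower in ESCs than in teratoma fibroblasts, with log2 differences from −2.66 to −1.08, and 4 of 5 were lower than in skin. The exception was MmugDNA.6545.1.S1_at, at 0.17 against skin (SE 0.34, adjusted p = 0.748). Vertebrate tropomyosin genes are read into many isoforms through alternative exons, and which exons these probe sets cover could not be checked here. The same probe set was lower in ESCs than in teratoma fibroblasts by 1.08 (SE 0.29, adjusted p = 0.0164), a call that was lost without C3806 (−0.74, adjusted p = 0.241), without C3106c (−0.95), without TB31 and TD31 (−1.0) and with all 39 arrays (−0.72), the last 3 because the size came under the threshold.

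In TPM2 only the brightest of 7 probe sets was called between ESCs and teratoma fibroblasts, and 3 of 7 between ESCs and skin. Another 3, MmugDNA.6751.1.S1_at, MmugDNA.26041.1.S1_at and MmugDNA.26762.1.S1_at, moved by no more than 0.25 log2 units in either comparison. The pair MmuSTS.1894.1.S1_at and MmugDNA.5740.1.S1_s_at rose and fell together over the fibroblast cultures (r = 1.00, n = 11) and was far lower in ESCs than in skin, at −4.06 (SE 1.03, adjusted p = 0.0109) and −4.08 (SE 1.07, adjusted p = 0.013). Those calls were lost without C3806 (−3.22 and −3.34, adjusted p = 0.105 for each) and with all 39 arrays (−3.12 and −3.22, adjusted p = 0.0528 and 0.0538). The ESC arrays of the pair ran from 5.73 to 10.67 and from 5.77 to 9.79, a spread that a fit on source means does not see. The skin arrays ran from 11.68 to 13.05 and from 11.22 to 12.47. Against teratoma fibroblasts the pair stood at −2.38 and −2.24 (adjusted p = 0.0676 and 0.0953), and it was called when TD31 was left out (−2.70 and −2.55, adjusted p = 0.00593 and 0.0152). It was called without the ESC array C3806a too (−3.22 and −2.84), and MmuSTS.1894.1.S1_at also without C3106d (−2.78). The probe set MmuSTS.2888.1.S1_at stood at −1.40 against teratoma fibroblasts (adjusted p = 0.12) and was called without TC31 (−1.58, adjusted p = 0.0414).

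**Figure D2:**
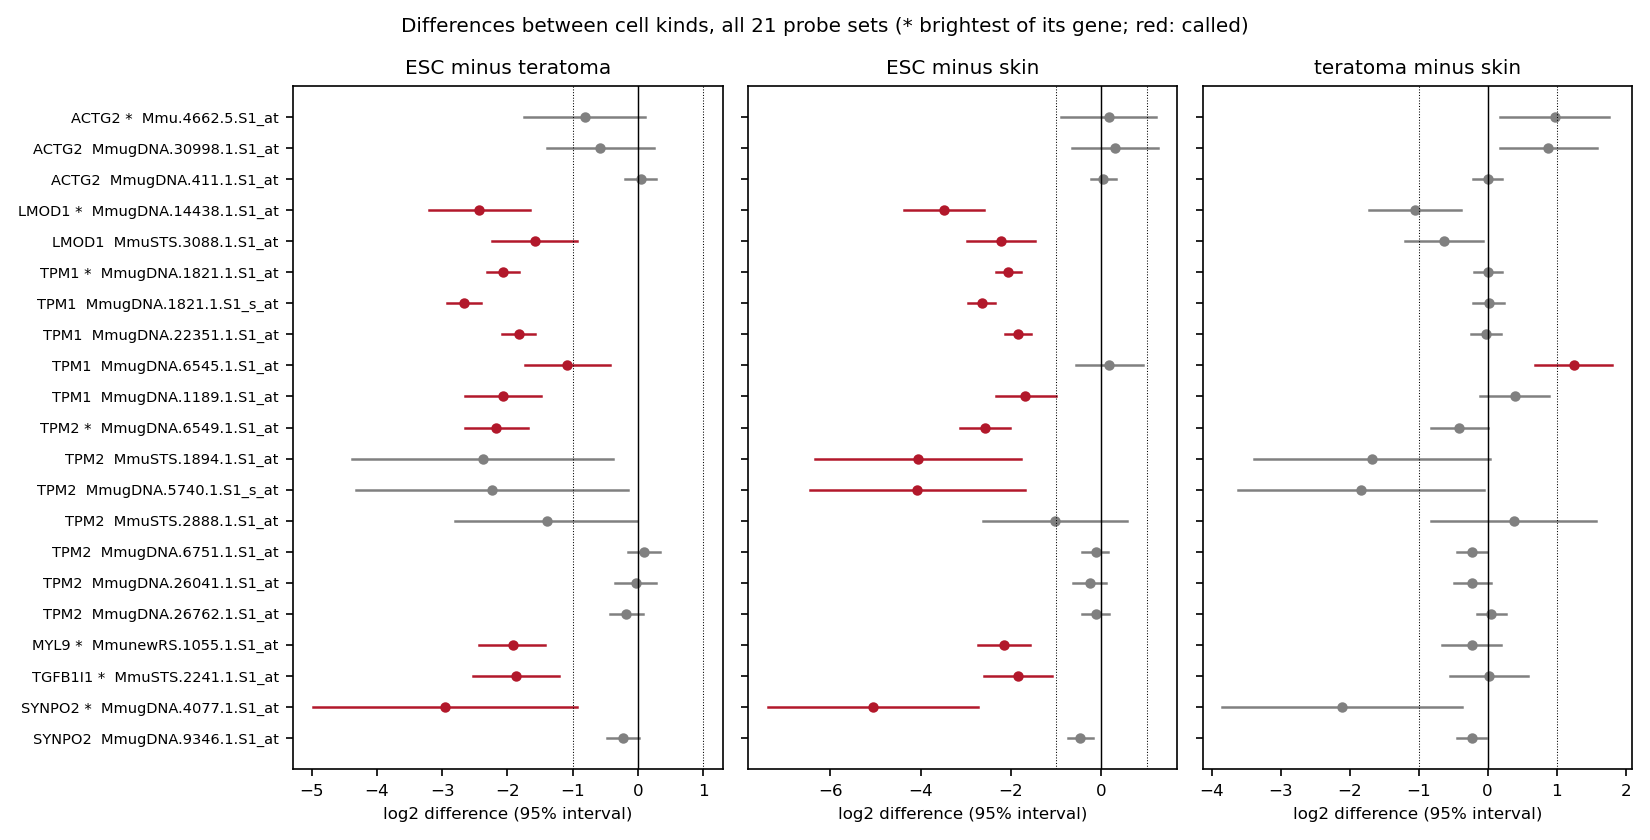
Log2 difference (horizontal axis) with its 95% interval for each of the 21 probe sets (rows) in the 3 comparisons of cell kinds, red where called, with dotted lines at −1 and 1. The rows of LMOD1 and the brightest rows of TPM1, TPM2, MYL9, TGFB1I1 and SYNPO2 are red to the left of 0 in both ESC panels, and 1 row, of TPM1, is red in the teratoma and skin panel.

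Between the fibroblasts of the 2 origins 1 of 21 probe sets was called higher in teratoma cultures and 0 lower, where 0.65% of all probe sets were called, 0.361% higher and 0.288% lower. On the brightest probe sets 0 of the 7 genes were called in limma, where 0.658% of all genes were higher and 0.545% lower. At an unadjusted p under 0.05, 9 of the 21 passed, a count not set against all probe sets here, so nothing is read from it. The called probe set was MmugDNA.6545.1.S1_at of TPM1. The teratoma cultures ran from 10.99 in TE31 to 12.13 in TC38 (median 11.89) on it, and the skin cultures stood at 10.70 in M032, 10.66 in M088 and 10.18 in M106p1. All 8 teratoma cultures were above all 3 skin cultures, and the difference was 1.25 (SE 0.25, adjusted p = 0.0383). The call was lost without any 1 of M032, M088, M106p1, TA31, TB31, TB38, TC38 or TD31, with differences from 1.08 to 1.35 and adjusted p from 0.0547 to 0.138. It was also lost with all 39 arrays (1.06, adjusted p = 0.0626).

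The other genes did not pass between teratoma and skin fibroblasts. SYNPO2 differed by −2.11 (SE 0.78, interval −3.85 to −0.37, adjusted p = 0.189) and LMOD1 by −1.06 (SE 0.30, interval −1.72 to −0.39, adjusted p = 0.0951). LMOD1 was called when TE31, the teratoma culture with its highest level, was left out (−1.14, adjusted p = 0.0441). ACTG2 stood the other way, at 0.97 (SE 0.36, interval 0.18 to 1.76, adjusted p = 0.186). On the brightest probe sets of TPM1 (0.01, interval −0.20 to 0.21), TGFB1I1 (0.02, interval −0.54 to 0.58), MYL9 (−0.23, interval −0.66 to 0.20) and TPM2 (−0.41, interval −0.82 to 0.00) a change of a factor of 2 lies outside the 95% interval. That holds for the signals of these probe sets and not for every probe set of the tropomyosin genes. The TPM2 pair stood at −1.68 and −1.83 (adjusted p = 0.294 and 0.267), and the called TPM1 probe set at 1.25. The brightest TPM1 probe set lay between 13.03 and 13.47 in the fibroblast cultures, while the highest value on any array was 14.18. Whether signals so near the top still follow RNA in proportion was not tested. With arrays as units and the source as a random block, ACTG2 (1.02), LMOD1 (−1.04), SYNPO2 (−2.08) and the TPM2 pair (−1.68 and −1.83) were called. That fit takes a single correlation of 0.341 between arrays of a source for all probe sets. It understates the error where arrays of a source agree more closely. In SYNPO2 the SD of the teratoma culture means was 1.37, while the 3 arrays of TE31 had an SD of 0.25.

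The ESC line of origin made no difference that passed. Between teratoma cultures of C3806 and of C3106, 0 of 21 probe sets were called in limma (all probe sets 0.0269%, 0.0211% higher and 0.00577% lower; all genes 0.0354% higher and 0.00708% lower), 0 at an unadjusted p under 0.05, and the largest difference was 0.45 (interval −0.15 to 1.05). Whether the step from ESC to teratoma fibroblast differed between the lines was tested as an interaction, with 0 of 21 called in limma (all probe sets 0.15%, 0.0557% higher and 0.0942% lower; all genes 0.0212% higher and 0.0354% lower). The 3 brighter TPM1 probe sets had unadjusted p of 0.00506, 0.00489 and 0.0117 there, with values of −0.77, −0.85 and −0.70, and they failed the correction (adjusted p = 0.282, 0.276 and 0.387).

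Between the 2 ESC lines themselves only arrays could be compared, and 9 of 21 probe sets differed, 8 lower and 1 higher in C3806 (all probe sets 8.19%, 4.19% lower and 4% higher). ACTG2 was lower in C3806 by 0.94 (log2 difference −0.94, SE 0.16, adjusted p = 0.000811), TPM1 by 0.74 (−0.74, adjusted p = 0.00592) and TPM2 by 0.52 (−0.52, adjusted p = 0.0313), and LMOD1 was higher by 0.63 (SE 0.13, adjusted p = 0.00272). C3806b was far below C3806a in the first 3 of these, with TPM2 at 9.43 against 10.39. Without C3806b the differences were −0.46 for ACTG2 (adjusted p = 0.0285), −0.31 for TPM1 (adjusted p = 0.191) and −0.05 for TPM2 (adjusted p = 0.84). Without C3806a that of LMOD1 was 0.49 (adjusted p = 0.0867), those of ACTG2, TPM1 and TPM2 were −1.42, −1.18 and −1.0, and with all 39 arrays 0 of 21 differed.

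Members also differed among cultures of the same kind. Among the 5 teratoma cultures of C3106, 13 of 21 probe sets differed by limma's F test over arrays (27.6% of all probe sets), and 4 of 7 genes on the brightest probe set. Among the 3 teratoma cultures of C3806 it was 7 of 21 (17.2% of all) and 3 genes, and among the 3 skin cultures 10 of 21 (23.1% of all) and 4 genes. Only the differences between arrays within each source enter as error in these F tests, and under the original labels of all 39 arrays the counts were 5, 2 and 3.

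On the brightest probe sets SYNPO2 had the widest spread of the 7 genes among the C3106 teratoma cultures (4.02), and the TPM2 pair was wider still (4.35 and 4.54). Its order ran M106p1 (9.14), TE31 (8.80), M032 (8.51), M088 (8.45), TA38 (7.65), TA31 (7.18), TC38 (6.88), TB31 (6.64), TB38 (5.54), TD31 (5.07), TC31 (4.78), C3106 (3.73) and C3806 (3.54). In 8 of its 12 neighbouring pairs the arrays of one source did not overlap those of the next; TE31, M032 and M088 overlapped in turn, as did TA31 and TC38, and TD31 and TC31. TE31 thus stood among the skin cultures, and its arrays (9.04, 8.81 and 8.55) were all above those of the other 7 teratoma cultures. The spread among C3106 teratoma cultures was 4.02 log2 units (adjusted p = 9.63e-20), and that among C3806 teratoma cultures, from 5.54 to 7.65, was 2.11 (adjusted p = 2.79e-12).

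LMOD1 had M106p1 and M088 (10.47 each) at the top, TE31 (9.85) and TA38 (9.58) as the highest teratoma cultures, and TB38 (8.64) and TD31 (8.57) as the lowest fibroblast cultures. M106p1 and M088 overlapped, and so did TB38 and TD31, while 7 of 12 neighbouring pairs were separate. The spread among C3106 teratoma cultures was a factor of 2.43 (adjusted p = 6.04e-09).

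TPM2 on its brightest probe set spread by a factor of 1.74 among C3106 teratoma cultures (adjusted p = 1.44e-05), and MYL9 by 1.68 (adjusted p = 0.00346). In MYL9, neighbours in the order overlapped in 11 of 12 pairs, and the single gap was between TD31 (12.03) and C3106 (10.57). The same held for TGFB1I1, whose single gap was between TD31 (9.65) and C3806 (8.45). TGFB1I1 did not pass the F test in any of the 3 groups (adjusted p = 0.0601, 0.214 and 0.45), nor did the brightest TPM1 probe set (adjusted p = 0.493, 0.986 and 0.0739). Without 1 of C3806a, C3806b, C3106d, TE31a, TA31b or TD31c TGFB1I1 passed among C3106 teratoma cultures (adjusted p from 0.0289 to 0.0478), and without 1 of C3806a, C3806b, C3106c or C3106d TPM1 passed among skin cultures (adjusted p from 0.0129 to 0.0387). On the brightest probe sets TD31 was the lowest fibroblast culture for LMOD1, TPM2, MYL9 and TGFB1I1. Its arrays overlapped those of the next culture for each of these genes. On the TPM2 probe set MmuSTS.2888.1.S1_at only TB31 stood above it (10.45 against 9.68).

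Over the 11 fibroblast cultures some members moved together, described here with no test, since cultures share a line or a kind. TPM2 and SYNPO2 had r = 0.94, LMOD1 and SYNPO2 0.87, LMOD1 and TPM2 0.87, TPM2 and MYL9 0.82 and LMOD1 and MYL9 0.81. ACTG2 stood apart, with r of −0.55 with SYNPO2, −0.45 with TPM2 and −0.41 with LMOD1. Without the 2 cultures farthest from the ACTG2 median these were −0.53, −0.49 and −0.49. With TPM1, TGFB1I1 and MYL9 the r of ACTG2 was 0.45, 0.04 and 0.02. TPM1 also had low r with LMOD1 (0.19), TPM2 (0.14) and SYNPO2 (−0.14), against 0.51 with MYL9 and 0.44 with TGFB1I1. Without the 2 cultures farthest from the TPM1 median, those with LMOD1, TPM2 and SYNPO2 were −0.37, 0.69 and 0.50.

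**Figure D3:**
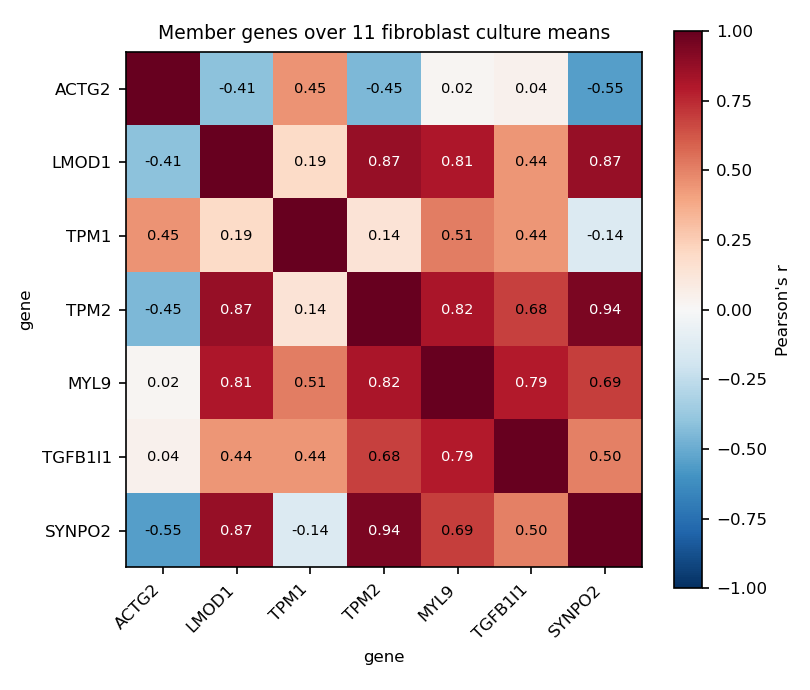
Pearson's r between the brightest probe sets of the 7 genes (rows and columns) over the means of 11 fibroblast cultures, with red for positive and blue for negative values. LMOD1, TPM2, MYL9 and SYNPO2 share high values (0.69 to 0.94), and the row of ACTG2 has no value above 0.45.

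Among 1640 other genes with an SD of at least 0.5 over these cultures, the 3 most like each member by r were named by rule. For SYNPO2 they were SHOX2, a limb homeobox gene (r = 0.97, and 0.94 without the 2 cultures farthest from the median), the matrix glycoprotein TNC (0.94) and PCOLCE2, an enhancer of procollagen processing (0.94). For LMOD1 they were the metalloprotease ADAMTS7 (0.96), SLC35E3 (0.94) and the adhesion protein CNTN3 (0.93). For MYL9 they were GALNT5 (0.93), the kinase PRKD1 (0.93) and CNN1, the smooth muscle protein calponin (0.92). For TPM2 SYNPO2 came first (0.94), before SLC16A5 (0.92) and the small GTPase RRAS (0.89). Each r named by this rule is among the highest of 1640 over 11 cultures, so its size owes in part to selection.

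For TGFB1I1 the nearest were FOXN3 (0.88), the elastic fibre protein EMILIN1 (0.86) and MB21D2 (0.86). TGFB1I1 had an SD of 0.37 over the culture means, while arrays of a fibroblast source had SDs from 0.01 in TB31 to 0.54 in M106p1. It passed no F test among cultures on the 36 arrays, so its nearest genes say little. For ACTG2 they were CYTL1 (0.94), the growth factor receptor FGFR2 (0.92) and LOC699035 (0.90), but these rested on the low skin cultures and fell to 0.57, 0.68 and 0.49 without the 2 farthest. TPM1 varied so little (SD 0.12) that its nearest, LOC694628 (0.88), SH3GLB1 (0.87) and GPR63 (0.85), say least.

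Skeletal muscle genes were high in part of the teratoma cultures, and TPM2 probe sets moved with them in opposite directions. The list held 19 markers, of which 16 were measured, and its mean log2 signal was 8.67 in TB31, 8.39 in TD31, 6.98 in TA38 and 6.89 in TB38, against 5.68 to 6.09 in the other 7 fibroblast cultures and 5.75 and 5.80 in the ESC lines. In TB31 9 and in TD31 10 of the 16 reached a signal of 8, against 1 or 2 in those 7 cultures. MYH3, the embryonic skeletal myosin, stood at 12.18 in TB31, 11.80 in TD31, 10.22 in TA38 and 9.53 in TB38, and between 4.44 and 7.85 elsewhere.

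The TPM2 probe set MmuSTS.2888.1.S1_at was highest in the same cultures, with arrays at 10.52 and 10.38 in TB31 and at 9.35, 9.86 and 9.85 in TD31. TC31 was lowest at 7.37, and the other 8 fibroblast cultures lay between 8.11 and 8.92. Among the 5 teratoma cultures of C3106 it differed by a factor of 8.46 (adjusted p = 5.72e-11), and it had r = 0.88 with the skeletal muscle mean over 11 cultures, or 0.39 without TB31 and TD31.

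The pair MmuSTS.1894.1.S1_at and MmugDNA.5740.1.S1_s_at ran the other way. The first stood at 7.83, 7.86 and 8.02 in TD31 and at 9.88 and 9.90 in TB31, while TE31 reached 12.40, 12.17 and 12.18 and M032 12.97, 13.05 and 12.70. The TD31 mean (7.90) lay between the means of the ESC lines (9.08 in C3106 and 7.41 in C3806). The ESC arrays disagreed widely, from 7.47 to 10.67 in C3106 and from 5.73 to 9.08 in C3806. The range among C3106 teratoma cultures was a factor of 20.4 (adjusted p = 9.5e-07), the r with the skeletal muscle mean was −0.77, and −0.39 without TB31 and TD31. Summed over its probe sets TPM2 can therefore not be given a single order of the cultures, and the part of skeletal muscle cells in these values was not tested.

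**Figure D4:**
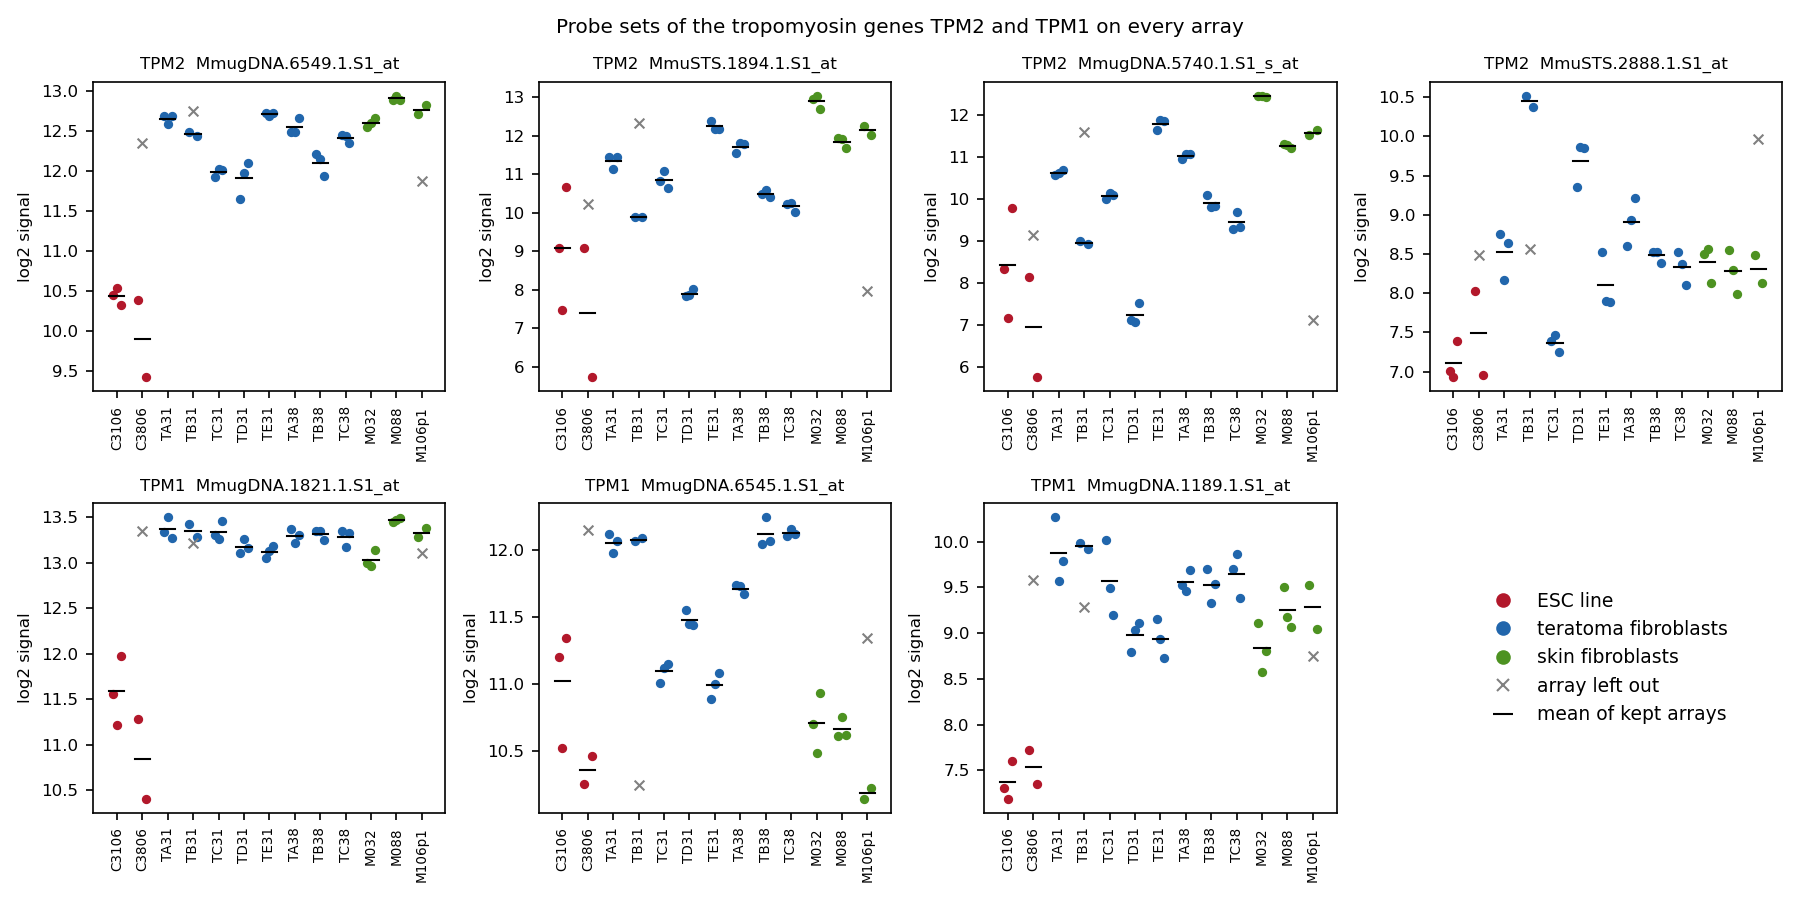
Log2 signal (vertical axis) of 4 TPM2 and 3 TPM1 probe sets in the 13 sources (horizontal axis), with points for arrays, bars for source means and crosses for arrays left out. TD31 has a low mean on MmuSTS.1894.1.S1_at (7.90) and a high one on MmuSTS.2888.1.S1_at (9.68), and on MmugDNA.6545.1.S1_at the skin cultures (10.18 to 10.70) lie below the teratoma cultures (10.99 to 12.13).

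Against the skeletal muscle mean SYNPO2 and LMOD1 had r of −0.51 and −0.49 over the 11 cultures (−0.41 and −0.36 without TB31 and TD31). TA38, with a raised skeletal muscle mean (6.98), had the second highest teratoma level of both SYNPO2 (7.65) and LMOD1 (9.58), and TC31 had the lowest SYNPO2 of all fibroblast cultures (4.78) with a skeletal muscle mean of 6.09. These are single cultures, and the part of skeletal muscle cells in the SYNPO2 and LMOD1 values was not tested. Without TB31 and TD31 the ESC to teratoma differences of SYNPO2 and of the 5 other genes called on their brightest probe set kept their calls.

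**Figure D5:**
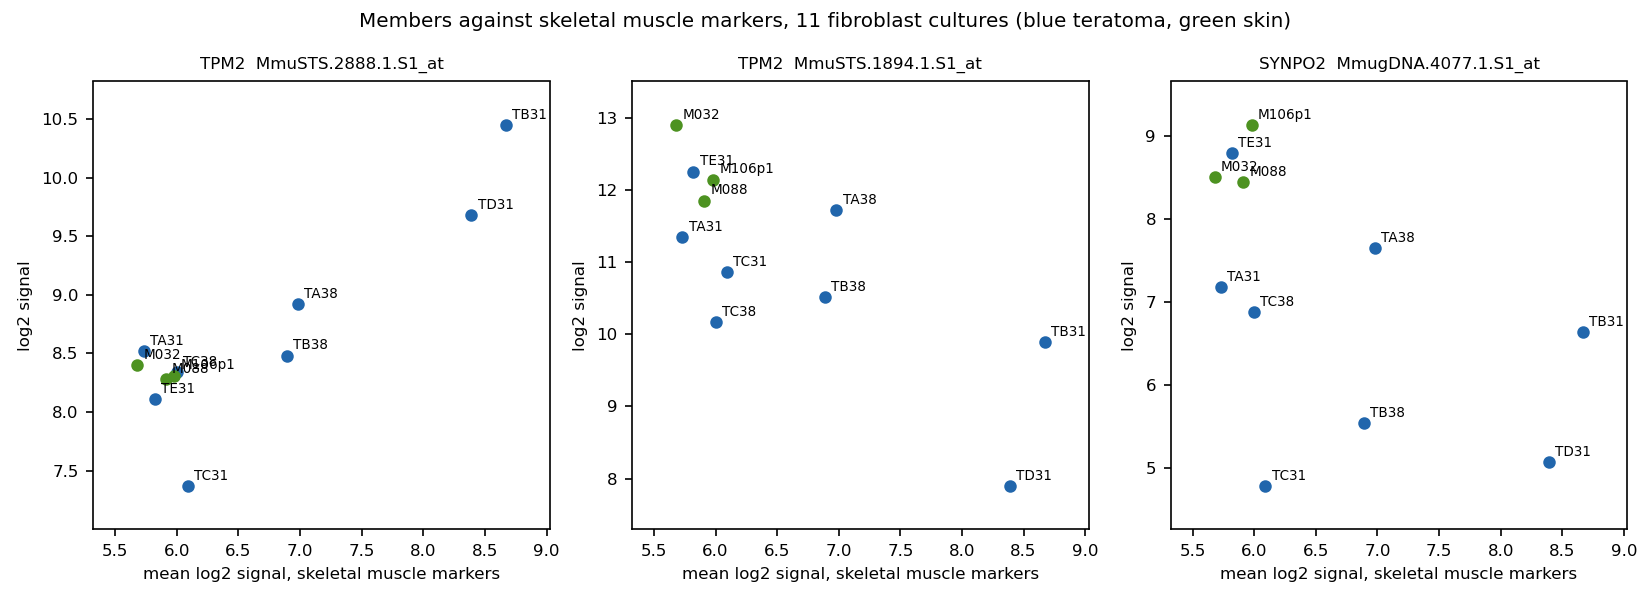
Log2 signal (vertical axes) of 2 TPM2 probe sets and the brightest SYNPO2 probe set against the mean log2 signal of the 16 skeletal muscle markers (horizontal axis), 1 point for each of the 11 fibroblast cultures. TB31 (8.67) and TD31 (8.39) lie far to the right, high in the first panel and low in the second.

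The other genes of the contractile apparatus followed in part. Of 26 listed genes outside the members 16 were measured, and 6 were lower in ESCs than in teratoma fibroblasts with 0 higher (median −1.01, all probe sets 0.03). Of all genes 8.16% were called lower and 6.3% higher in that comparison, and 9.76% lower and 10.2% higher against skin. ITGA8, an integrin of smooth muscle and myofibroblasts, stood at −3.22 (SE 0.59, adjusted p = 0.00175), FILIP1L at −3.10, KCNMB1, the smooth muscle subunit of the BK potassium channel, at −3.09 and the filament protein SYNM at −1.67. Against skin 7 were lower and 1 higher (median −1.41), with FILIP1L at −3.89, KCNMB1 at −3.80, ITGA8 at −3.73 and the actin-binding NEXN at −1.93. Between teratoma and skin fibroblasts 0 passed in limma (median −0.24, all probe sets 0.01), where 0.658% of all genes were called higher and 0.545% lower.

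The smooth muscle myosin MYH11, named after its values were seen, did not pass in these comparisons but stood out in part of the skin cultures, at 11.16 in M106p1 and 10.35 in M088 against 8.48 in M032 and 7.49 to 8.62 in the teratoma cultures. CNN1 was highest in M106p1 (11.27) and TE31 (11.24) and lowest in TD31 (8.26), below both ESC lines (9.14 and 9.26).

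Of 18 listed transcription factors and cofactors of this programme 15 were measured, and 7 were lower in ESCs than in teratoma fibroblasts with 0 higher (all genes 8.16% and 6.3%, median of the list −0.62). PRRX1, a mesenchymal homeobox factor, stood at −6.61 (SE 0.31, adjusted p = 1.19e-07), GATA6 at −4.14, KLF4 at −3.22 and the LIM protein FHL1 at −2.67. Against skin 8 were lower and 1 higher (all genes 9.76% and 10.2%, median of the list −1.10), with PRRX1 at −7.36, GATA6 at −3.61, FHL1 at −3.11 and MEF2C at −2.95. SRF itself was not measured under a single gene name.

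Of 30 TGF-beta ligands, receptors and targets 26 were measured, and 16 were lower in ESCs than in teratoma fibroblasts and 16 lower than in skin, with 0 higher in either (medians −1.35 and −1.38). The shares of all genes were 8.16% and 9.76% lower, and 6.3% and 10.2% higher. TGFBI, a matrix protein named for its induction by TGF-beta, stood at −6.73 (SE 0.31, adjusted p = 1.14e-07) and −6.99, the collagen crosslinking enzyme LOX at −5.85 and −5.41, and ANKRD1 at −5.59 and −6.29. Between teratoma and skin fibroblasts LTBP2, a latent TGF-beta binding protein, was the single gene of the list to pass, at −1.02 (SE 0.18, adjusted p = 0.025). Of all genes 0.545% were called lower there and 0.658% higher.

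Of 40 listed genes of the general cytoskeleton 32 were measured, and 7 were lower in ESCs than in teratoma fibroblasts (median −0.27), with the focal adhesion proteins PARVA at −2.67 (SE 0.12, adjusted p = 7.91e-08) and LIMS1 at −1.97, the filament cap TMOD2 at −2.01 and PALLD at −1.60. Against skin 7 were lower and 1 higher (median −0.31), with TMOD2 at −3.50, LIMS1 at −2.84, PARVA at −2.78 and PALLD at −1.87. Over all genes, each on its brightest probe set, 8.16% were called lower against teratoma fibroblasts and 9.76% against skin, and 6.3% and 10.2% higher.

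Markers of other cells that carry contractile genes were set beside the members. Of 7 pericyte markers 4 were measured, and their mean ran from 7.98 to 8.59 in the teratoma cultures, from 9.19 to 9.73 in the skin cultures and from 8.00 to 8.18 in the ESC lines. Between teratoma and skin fibroblasts 1 of the 4 was called lower and 0 higher (all genes 0.545% and 0.658%, median of the list −0.98). It was KCNJ8, a potassium channel of pericytes (log2 difference −2.88, SE 0.33, adjusted p = 0.00451). NOTCH3 of the same list had a higher mean in teratoma (8.22) than in skin fibroblasts (7.83). Of 9 cardiac markers 7 were measured, with means from 6.58 to 8.08 over all sources. The means hide single bright markers: the highest stood at 12.66 in TB31, 12.52 in TD31, 11.68 in C3106 and 11.59 in C3806. It was 7.42 in M032 and 7.61 in TE31. TNNI3 was the 1 cardiac marker called between ESCs and fibroblasts, higher in ESCs than in teratoma fibroblasts (1.49) and skin (1.55). Of all genes 6.3% and 10.2% were called higher there. Of 5 endothelial markers all 5 were measured, with means from 5.95 to 6.80. The part of pericytes or of other muscle in the member values was not tested.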

How the data were processed

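Total RNA of 39 samples was extracted with Trizol, purified and labelled with biotin by in vitro transcription, per the labels' protocols. The authors deposited log2 values, made with GCOS and RMA, per the submitters' processing notes, which give no version. RMA makes the arrays' distributions alike, so a shift of all genes cannot be seen. The log2 values ran from 2.11 to 14.18, and the number of arrays limits their precision.

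Of 52865 probe sets 158 controls, 683 viral and 4 ribosomal ones were left out. The platform annotation names 1 gene for 24969 probe sets, several for 361 and none for 27535. Values were averaged by source, and these 13 averages entered a limma model (version 3.58.1, R 4.3.3) whose 5 classes were skin, the C3106 and C3806 ESC sources, and the cultures from C3106 and from C3806 teratomas. Each ESC line is 1 source, so the spread came from the fibroblast cultures. The mean of the ESC classes was set against the mean of the teratoma classes or skin, two-sided, so a difference can depart slightly from that of the means over all 8 cultures. Cultures of a kind and the ESC lines were compared over 36 arrays. The fits were tested on simulated data.

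The members and lists were chosen with earlier results of these data known. Named from each list were up to 4 called genes with the largest difference in each of the first 4 comparisons, and for likeness 3 genes a member. A gene of a list stands by its brightest probe set. Markers of ESCs, fibroblasts, keratinocytes, leukocytes and neural cells were also listed: 6 of 6 ESC markers were higher in ESCs and 5 of 7 fibroblast markers lower in both comparisons, 0 of 3 measured keratinocyte and 0 of 4 leukocyte markers were called in limma, and of 4 neural markers GFAP was higher (1.38) and TUBB3 lower (−1.26) in ESCs than in teratoma fibroblasts. Alternatives left out arrays or sources, used all 39 arrays, and changed the features, classes, unit, scaling or variance model. No probe, promoter or protein sequence was used here, and no coordinates, since the assembly of the gene table was not that of the arrays.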

Additional observations from a re-analysis of the deposited data

Results flagged for a closer look

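In 42 sets of culture means (each of the 21 probe sets in the 8 teratoma cultures and in the 5 from C3106), the highest or lowest value was set against the rest, and 3 stood apart by Dixon's 95% criterion, where chance gives about 1 in 20. The 5 cultures are part of the 8, so the sets are not separate, and nothing is read from the count of 3. ACTG2 on its brightest probe set was 12.23 in TA38, while the other 7 teratoma cultures lay between 12.85 and 13.28. SYNPO2 on MmugDNA.9346.1.S1_at was 6.24 in TE31, against 5.84 to 5.96 in the other 4 C3106 cultures and 5.84 to 6.0 in the other 7 teratoma cultures, so the same value was flagged in both sets. That probe set is dim, but TE31 was also the highest teratoma culture on the bright SYNPO2 probe set, at 8.80.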

How the results depend on the processing

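The counts of members lower in ESCs kept within 1.5 times under every alternative run: 9 to 13 probe sets (5 to 6 genes) against teratoma fibroblasts and 10 to 12 (6 genes) against skin when 1 source or array was left out. In the comparison of teratoma with skin fibroblasts the counts moved by more than that. With all 39 arrays 0 member probe sets were higher, without TB31 and TD31 0, with arrays centred on their medians 0, and with the source as a random block 2 higher and 4 lower (1 gene higher and 2 lower). Leaving out 1 source or array gave 0 to 1 higher and 0 to 1 lower (genes lower 0 to 1). Over all probe sets the 150 lower and 188 higher became 29 and 35 with all 39 arrays, 65 and 62 without TB31 and TD31, 77 and 93 with 1 probe set a gene, and 601 and 811 with the random block, and 82 to 327 lower and 58 to 454 higher when 1 source or array was left out. The cause was not tested, except that fewer probe sets were tested with 1 a gene.

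With all 39 arrays the member probe sets that differed were 5 among C3106 teratoma cultures, 2 among C3806 teratoma cultures, 3 among skin cultures and 0 between the ESC lines (genes 1, 1, 1 and 0), since the left-out arrays then widen the spread within their sources. Between the ESC lines TPM1 turned to 0.09, 0.21 and 0.07 on its 3 brightest probe sets and TPM2 to 0.29, and leaving out 1 array gave 2 to 4 genes. The letters of the array labels were checked as a pairing: arrays of equal letter had a median correlation of deviations of 0.034 and those of different letters −0.024. These medians cannot exclude that some arrays of equal letter share more than the letter, which was not tested. With the letter as a replicate block 14, 8, 11 and 7 member probe sets differed (genes 5, 3, 4 and 4).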
